A study of Mus musculus with 20 samples.

Results

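The genes described here are 10 receptors that raise or lower the response of a T cell to antigen: Cd28, Icos, Ctla4, Pdcd1, Lag3, Havcr2, Tigit, Tnfrsf4, Tnfrsf9 and Tnfrsf18. They were chosen by name, with earlier results of these data known. All 10 were found among the 24862 gene rows of each deposited count table. RNA-seq was made from 12 libraries of C57BL/6 mouse TH17 cells, the CD4 T cells that make interleukin-17, in 6 groups of 2. TH17 cells from the central nervous system (CNS) and from the ileum were sorted as GFP-positive cells, 50000 per RNA preparation. The sources used here state neither the animals' age and disease state nor the gene that drives GFP. TH17(β) cells were naive CD4 cells cultured with TGF-β1 (2 ng/ml) and IL-6 (20 ng/ml), with c-Rel overexpressed (Ad-c-Rel) or with a control construct (Ad-control). Pathogenic TH17(23) cells came from miR-21-/- or control mice and received 20 ng/ml each of IL-1β, IL-6 and IL-23. All 4 cultured groups received plate-bound antibody to CD3ε, antibody to CD28 (2 µg/ml) and antibodies that block IL-4 and IFN-γ, so CD28 itself was engaged in them. The study's title concerns a miR-21, Peli1 and c-Rel pathway in pathogenic TH17 cells, and the 3 pairs ask how tissue, added c-Rel and loss of miR-21 change TH17 transcripts.

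T cells need a costimulatory signal beside the antigen receptor, and CD28 gives it when it binds CD80 or CD86 on an antigen-presenting cell. ICOS is its inducible relative. CTLA-4 competes with CD28 for the same ligands and restrains the cell, and PD-1 (Pdcd1), LAG-3, TIM-3 (Havcr2) and TIGIT are further brakes that appear after activation. OX40 (Tnfrsf4), 4-1BB (Tnfrsf9) and GITR (Tnfrsf18) belong to the TNF receptor superfamily and signal through TRAF adaptors to NF-κB. Regulatory T cells carry much CTLA-4, OX40 and GITR, and TIM-3 is also found on macrophages, microglia and dendritic cells.

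Gene counts summed to 15421743 to 19930807 in the 8 sorted and TH17(β) libraries and to 32766097 to 36711252 in the 4 TH17(23) libraries. Genes with a count numbered 14224 and 11545 in CNS and 13927 and 10771 in ileum, so replicate 2 of both sorted groups held fewer. They numbered 14183 to 14522 in TH17(β) libraries and 15842 to 16684 in TH17(23) libraries. Levels are given as CPM, the counts of a gene per 1000000 gene counts of its library. The T cell genes Cd3e and Cd4 were present in every library (Cd3e 145 to 370.4 CPM), and Cd8a stayed at or under 4.99 CPM. The sorted libraries also held transcripts of other cells. Macrophage and monocyte markers (14 genes) summed to 17721 and 17935 CPM in CNS against 2154 and 2311 CPM in ileum, and to 11.3 to 40 CPM in the cultures. B and plasma cell markers (9 genes) summed to 16.0 and 6.81 CPM in CNS against 3589 and 3551 CPM in ileum. In such bulk samples fewer cells of a type and less RNA per cell cannot be told apart. Nothing in the labels ties replicates to separate animals or cultures, so every p-value rests on the spread between 2 samples that may differ only technically.

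The receptor transcripts fell into distinct patterns over the 6 groups. Icos, Ctla4 and Tigit had their highest mean in ileum cells. Pdcd1 and Havcr2 had theirs in CNS cells, and Cd28, Lag3, Tnfrsf4, Tnfrsf9 and Tnfrsf18 had theirs in Ad-c-Rel cultures. Sorted and cultured cells differ in source and stimulation, and in library kit for TH17(23) cultures, which cannot be told apart, so the levels across pairs are described without a test.

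**Figure D1:**
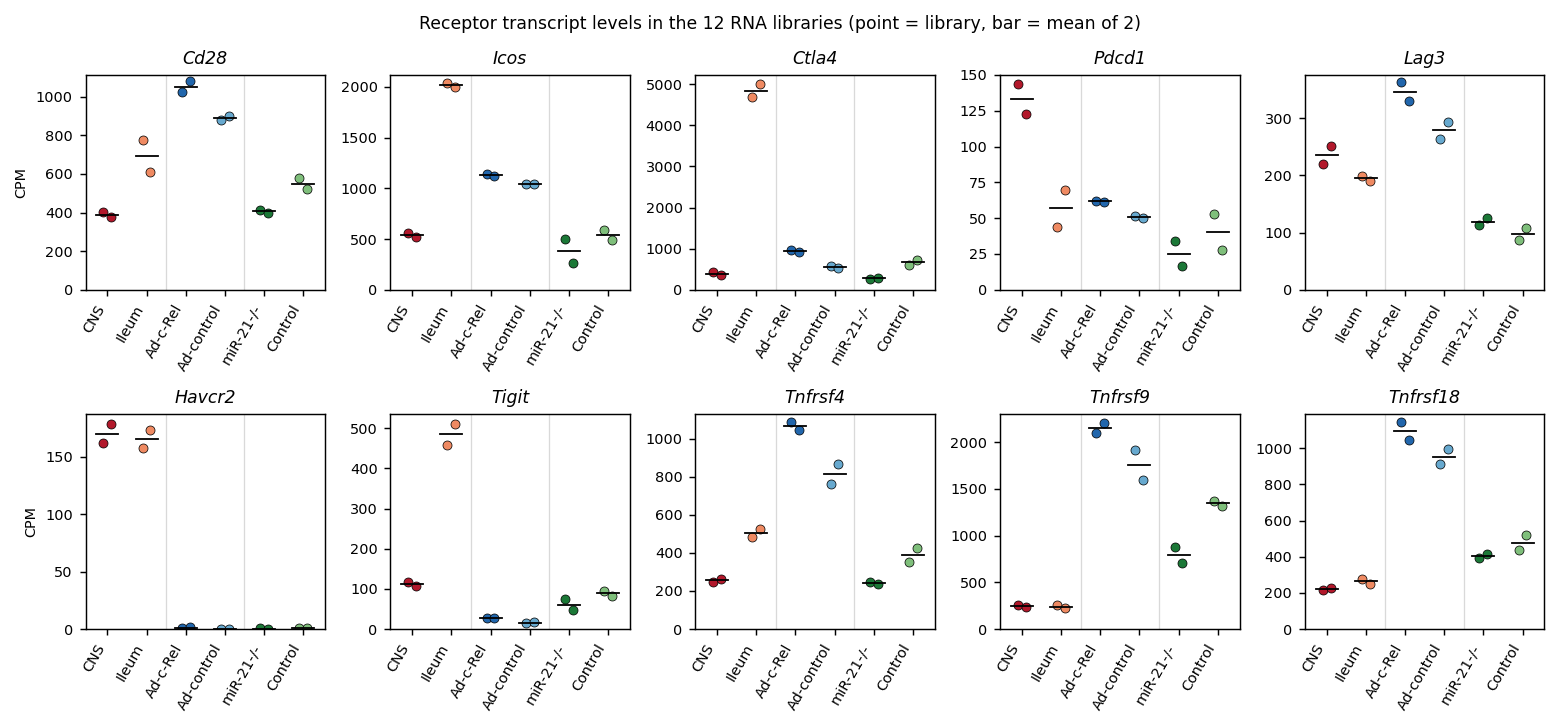
CPM of each receptor gene (y axes, linear, starting at 0) in the 12 libraries by group. Points are libraries and bars are means of 2. Ctla4 in ileum (4692 and 4997 CPM) stands above all other groups, and Havcr2 is above 2 CPM in no cultured library.

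Ctla4 spanned 17.1-fold between its lowest group mean, 283 ± 12.9 CPM in miR-21-/- cells, and its highest, 4845 ± 215 CPM in ileum (SD, n = 2 each here and below). Between these came CNS (395 ± 48.8), Ad-control (553 ± 20.9), Control (668 ± 89.7) and Ad-c-Rel (941 ± 30.9 CPM), and no neighbouring groups overlapped in their libraries. Tigit was lowest in the TH17(β) cultures, with 27.6 ± 0.262 CPM in Ad-c-Rel and 16.3 ± 1.63 CPM in Ad-control. It was higher in turn in miR-21-/- (61.1 ± 20.1), Control (89.5 ± 8.98), CNS (112 ± 7.37) and ileum (485 ± 36.6 CPM), again with no overlap of neighbours. Havcr2 was high in the sorted samples and near 0 in culture. Its means were 170.1 ± 11.7 CPM in CNS and 165 ± 11.4 CPM in ileum, and 0.115 to 1.33 CPM in the cultures. The 2 sorted groups overlapped.

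Cd28 varied least, 2.70-fold between its highest mean (Ad-c-Rel, 1051 ± 39.3 CPM) and its lowest (CNS, 389 ± 15.9 CPM). The CNS and miR-21-/- libraries overlapped for it, and no other neighbours in its order did. Icos had overlapping libraries in miR-21-/- (383 ± 162 CPM), Control (540.1 ± 74.4 CPM) and CNS (541 ± 30.7 CPM), followed by Ad-control, Ad-c-Rel and ileum (2018 ± 22.5 CPM) without overlap. Pdcd1 was low in all groups but CNS (133 ± 15.2 CPM). Its other 5 means lay between 25.3 and 61.9 CPM, and each overlapped its neighbour. Lag3 ran from 97.7 ± 13.99 CPM in Control to 346 ± 23.1 CPM in Ad-c-Rel, and no neighbours overlapped.

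Of the TNF receptor genes, Tnfrsf9 and Tnfrsf18 had higher means in all 4 cultured groups than in either sorted group, and Tnfrsf4 did not. Tnfrsf9, encoding the activation-induced 4-1BB, averaged 241 ± 17.8 CPM in ileum and 248 ± 11.1 CPM in CNS, which overlapped. It averaged 795 ± 118 CPM in miR-21-/-, 1345 ± 34.9 CPM in Control, 1756 ± 226 CPM in Ad-control and 2148 ± 78.9 CPM in Ad-c-Rel. Tnfrsf18 ran from 221 ± 7.78 CPM in CNS to 1095 ± 69.4 CPM in Ad-c-Rel and Tnfrsf4 from 243 ± 5.73 CPM in miR-21-/- to 1068 ± 28.6 CPM in Ad-c-Rel. Neither had overlapping neighbours.

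Counted together, the 10 genes made up 2758 and 2648 CPM in CNS, 9381 and 9558 CPM in ileum, 7907 and 7841 CPM in Ad-c-Rel, 6415 and 6303 CPM in Ad-control, 2931 and 2513 CPM in miR-21-/-, and 4171 and 4225 CPM in Control. Ctla4 alone gave 50.02% and 52.3% of the receptor counts in the ileum libraries, against 8.54% to 17.3% in the other 10. Tnfrsf9 gave 9.28% and 9.07% in CNS and 2.70% and 2.39% in ileum, and 25.3% to 32.8% in the cultures. These shares are not corrected for gene length, so they compare libraries and not genes.

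**Figure D2:**
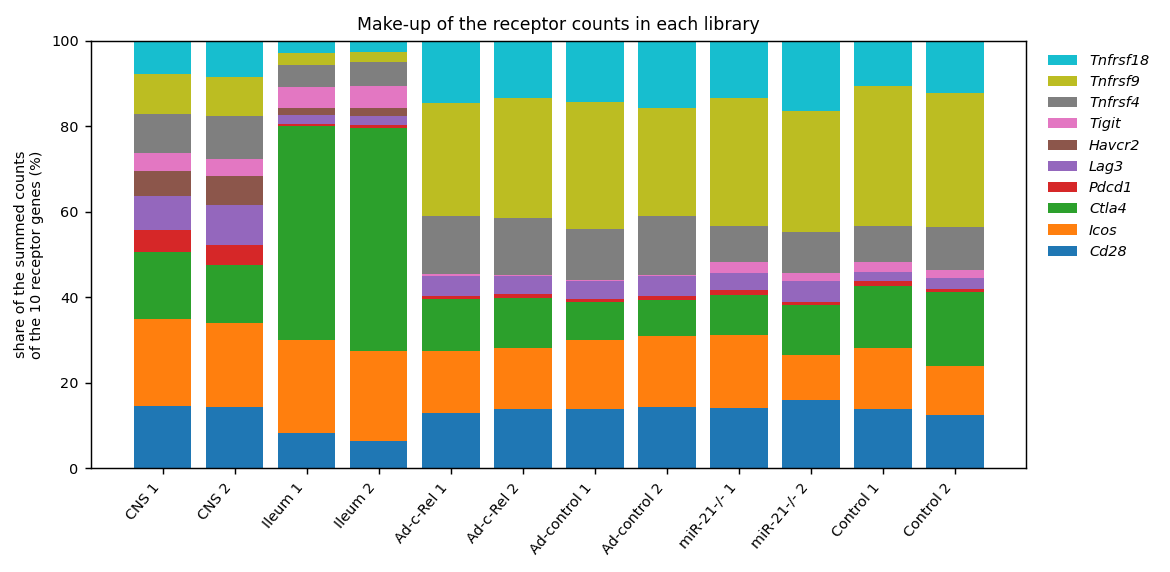
Share of each gene in the summed counts of the 10 receptor genes (y axis, percent) in each of the 12 libraries (x axis). Ctla4 takes 50.02% and 52.3% in the ileum libraries, and Tnfrsf9 takes 25.3% to 32.8% in the cultured libraries.

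In TH17 cells of the CNS, 5 of the 10 receptor genes were lower than in ileum and 0 were higher. Ctla4 differed most (14.1-fold lower), followed by Tigit (4.96-fold), Icos (4.29-fold), Tnfrsf4 (2.26-fold) and Cd28 (2.05-fold). The test was edgeR's quasi-likelihood F test (two-sided, TMM scaling) with Benjamini-Hochberg adjustment over all 12038 genes tested and a threshold of 0.05. It called 9.66% of all genes, 5.66% lower and 4% higher. The median log2 fold change of the receptors was −0.74, beside 0.08 over all genes tested. By CPM, the 2 groups did not overlap for 6 receptors that were lower in CNS, as for 21.6% of all genes, and for 2 that were higher, as for 38.9% of all genes.

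Both costimulatory members of the CD28 family were lower in CNS. Cd28 had 401 and 378 CPM in the CNS libraries against 776 and 612 CPM in the ileum libraries. The groups did not overlap, though the ileum replicates lay apart (log2 fold change −1.04, standard error SE 0.171, adjusted p = 0.0226 by edgeR). Icos had 563 and 519 CPM in CNS against 2034 and 2002 CPM in ileum. Its replicates lay close together and the groups far apart (−2.10, SE 0.11, adjusted p = 0.00083 by edgeR).

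The inhibitory receptors moved unequally. Ctla4 had 429 and 360.1 CPM in CNS against 4692 and 4997 CPM in ileum (−3.82, SE 0.124, adjusted p = 0.00024 by edgeR). Tigit, which binds the poliovirus receptor on antigen-presenting cells, had 117 and 107 CPM in CNS against 459 and 511 CPM in ileum (−2.31, SE 0.151, adjusted p = 0.00147 by edgeR). Both were lower in every CNS library than in either ileum library. Pdcd1 had 144 and 122 CPM in CNS against 43.9 and 69.8 CPM in ileum. The CNS libraries were the higher ones, but the difference did not pass (1.03, SE 0.291, adjusted p = 0.0967 by edgeR). It passed with DESeq2 (adjusted p = 0.0032), as higher beside 14.4% of all genes, and in edgeR with no filter on low counts (adjusted p = 0.00588), beside 7.1% of all genes. Lag3, which binds MHC class II, had 221 and 252 CPM in CNS against 199 and 190.4 CPM in ileum and was not called (0.08, SE 0.168, adjusted p = 0.846 by edgeR). Havcr2 had 162 and 178 CPM in CNS against 157 and 173 CPM in ileum, values that interleave (−0.16, SE 0.176, adjusted p = 0.674 by edgeR).

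**Figure D3:**
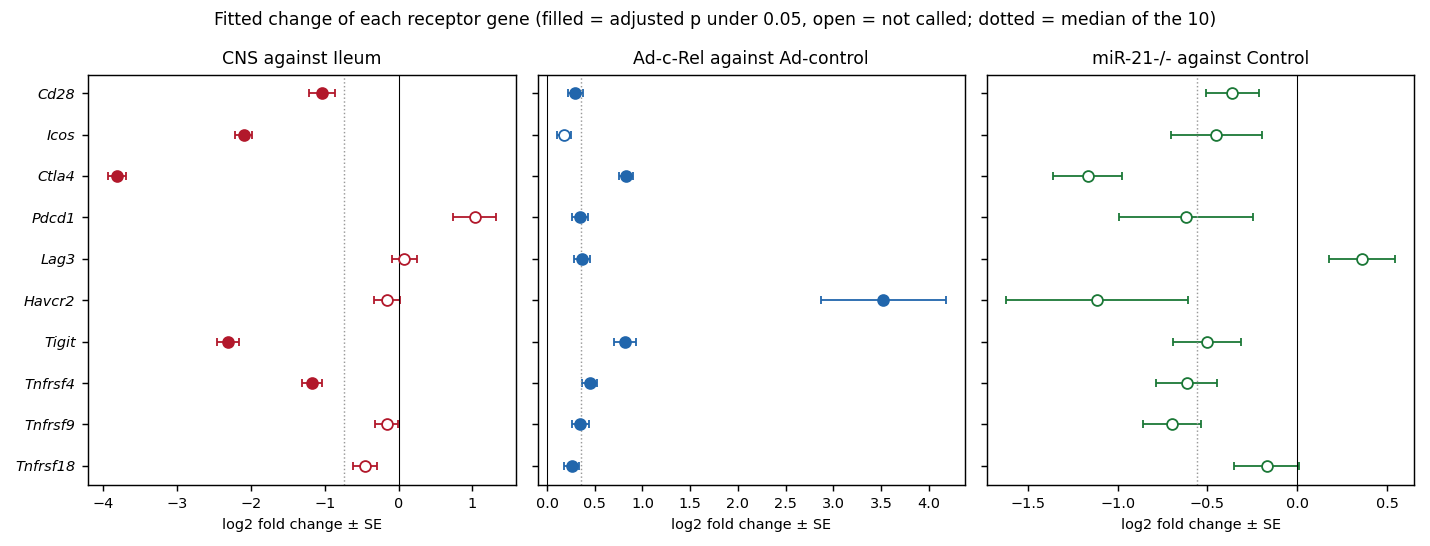
Fitted log2 fold change ± SE of each receptor gene in the 3 comparisons (x axes differ in range). Filled points passed an adjusted p of 0.05, open points did not, and the dotted line is the median of the 10 genes. CNS against Ileum spreads from −3.82 to 1.03, all 10 are above 0 in Ad-c-Rel against Ad-control, and 9 of 10 are below 0 in miR-21-/- against Control. Havcr2 is counted in both, although it passed the count filter only through the higher group of each culture pair.

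Of the TNF receptor genes, Tnfrsf4 was lower in CNS, with 249.7 and 264 CPM against 486 and 526 CPM in ileum (−1.18, SE 0.137, adjusted p = 0.00823 by edgeR). Tnfrsf9 had 256 and 240.2 CPM in CNS and 254 and 228 CPM in ileum, which overlap (−0.16, SE 0.159, adjusted p = 0.626 by edgeR). Tnfrsf18 had 216 and 227 CPM in CNS against 279 and 248 CPM in ileum and did not pass (−0.45, SE 0.164, adjusted p = 0.172 by edgeR). It was called lower with DESeq2 (adjusted p = 0.00629), as were 15.1% of all genes, and in 1 edgeR fit over 12 libraries (adjusted p = 0.0415), as were 14.6%. A receptor that was not called is not thereby shown to be alike in both tissues.

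The sorted groups also differed in their T cell transcripts. T cell identity genes (15 genes, Cd28 not among them) summed to 5872 and 5969 CPM in CNS against 7425 and 7276 CPM in ileum. Scaling to that sum moved the median log2 fold change of all genes by 0.51, to 0.59. Under it Ctla4 (−3.31), Tigit (−1.80), Icos (−1.59) and Tnfrsf4 (−0.67) remained lower. Cd28 was no longer called (−0.52, adjusted p = 0.0986 by edgeR), and Pdcd1 passed as higher in CNS (1.54, adjusted p = 0.0342 by edgeR). Of all genes 2.97% were called lower and 8.74% higher in that fit.

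Ratios within a library carry no scaling. Ctla4 counts per Cd28 count were 1.07 and 0.952 in CNS against 6.05 and 8.17 in ileum. Icos per Cd28 was 1.404 and 1.37 in CNS against 2.62 and 3.27 in ileum, and Tigit per Cd28 0.293 and 0.283 in CNS against 0.592 and 0.836 in ileum. Tnfrsf9 per Cd28 was 0.639 and 0.635 in CNS and 0.327 and 0.373 in ileum, so this ratio was higher in CNS. In all 4 ratios the CNS and ileum libraries did not overlap.

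**Figure D4:**
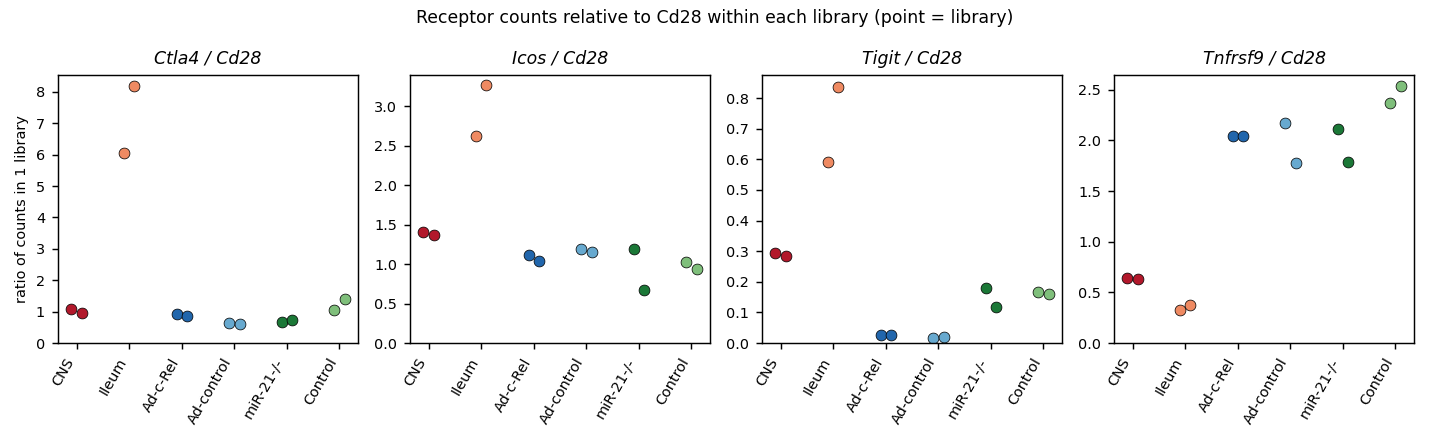
Counts of Ctla4, Icos, Tigit and Tnfrsf9 divided by the Cd28 count of the same library (y axes, linear, starting at 0), 2 points per group. The ileum libraries are highest for Ctla4, Icos and Tigit per Cd28 and lowest for Tnfrsf9 per Cd28.

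Markers of other cells moved with tissue beside these results. In CNS, 13 of 14 macrophage and monocyte markers and 7 of 10 microglia markers were called higher, beside 4% of all genes. Lyz2, a lysozyme of myeloid cells, had 5672 and 5640 CPM in CNS against 582 and 708 CPM in ileum. Of 9 B and plasma cell markers 8 were tested and 5 were called lower, beside 5.66% of all genes. Ms4a1, with 0 counts in CNS, passed the count filter only through ileum. The microglia gene Tmem119, with 1 and 2 counts in ileum, passed it only through CNS. The calls of Ms4a1 and Tmem119 describe the samples and are not used as test results. Of 8 regulatory T cell markers Ikzf2 was lower (−2.41) and Capg, an actin-capping protein also made by myeloid cells, was higher (0.82). The defining gene Foxp3 had 32.5 and 18.8 CPM in CNS and 18.5 and 31.3 CPM in ileum, which overlap (−0.16, SE 0.524, adjusted p = 0.909 by edgeR). Of 12 CD8 T and NK cell markers 7 were tested, 4 with fitted values above 0 in CNS and 3 below. Only Gzma was called (lower). Cd8a was at 2.44 and 4.99 CPM in CNS and 1.72 and 0 CPM in ileum. The part of these cells in the receptor differences was not tested.

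The macrophage marker sum was several times higher in CNS than in ileum, and Havcr2 CPM overlapped between them. The Havcr2 counts of 6151 and 5506 gave a CNS to ileum ratio of 1.03 (95% exact interval 0.995 to 1.07). That interval covers counting error only and leaves out the spread between replicates. The edgeR fit gave a log2 fold change of −0.16 (SE 0.176), so equal levels are not shown. Cd74, the gene most like Havcr2 over the 12 libraries, had 5130 and 6138 CPM in CNS against 4403 and 5083 CPM in ileum (0.05, not called). Which cells carried Havcr2 was not tested. In the cultures, where Lyz2 stayed at or under 0.183 CPM, Havcr2 had 2 to 37 counts per library.

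**Figure D5:**
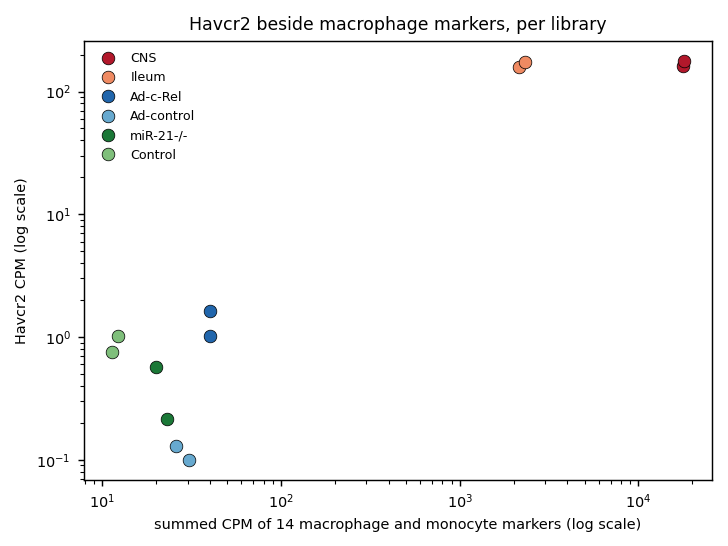
Havcr2 CPM (y axis, log scale) against the summed CPM of 14 macrophage and monocyte markers (x axis, log scale) in each library. The CNS and ileum points lie at 157 to 178 CPM of Havcr2, their marker sums differ, and all cultured libraries lie below 2 CPM.

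Other lists of costimulation genes had more lower than higher calls in CNS, except the ligands with 1 of each. Of all genes tested 5.66% were called lower and 4% higher. The lists were not read under T cell identity scaling, where 2.97% of all genes were called lower and 8.74% higher. Of 22 further receptors 4 were lower and 0 higher: Tnfrsf1b, the TNF receptor 2 (−2.42), Cd6 (−1.58), Slamf1 (−1.59) and Cd40lg, the ligand by which T cells help CD40-bearing cells (−1.01). The median of this list was −0.21. Of 18 ligands 14 could be tested. Tnfsf8, the ligand of CD30, was lower (−3.39), and Lgals3, a galectin that LAG-3 binds, was higher (0.85). Among 27 signalling adaptors 9 were lower, including the paracaspase Malt1 (−1.99), and 2 were higher, including the phosphatase Ptpn6 (2.64), which myeloid cells also express. Transcription factors known at these receptor genes were lower in 16 of 22 tested cases, with Nfil3 (−2.26), Nr4a1 (−1.53), Nfkb2 (−2.01) and Foxo1 (−2.47) first by p, and 1 was higher.

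In TH17(β) cultures that overexpressed c-Rel, 8 of 9 receptor genes were higher and 0 were lower, leaving aside Havcr2, which entered the test through the Ad-c-Rel libraries alone. Rel itself had 57.5 and 61.9 CPM with Ad-c-Rel against 10.8 and 7.02 CPM with Ad-control, which bears out the labels. Most increases were modest: Ctla4 rose 1.77-fold, Tigit 1.76-fold and Tnfrsf4 1.36-fold. The same edgeR test called 14.3% of 11711 genes, 8.16% higher and 6.12% lower. The median log2 fold change was 0.35 for these 9 receptors and −0.01 for all genes tested.

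Ctla4 had 963 and 919.6 CPM with Ad-c-Rel against 568 and 539 CPM with Ad-control. The pairs of libraries were tight and well separated (0.83, SE 0.0730, adjusted p = 1.64e-06 by edgeR). Pdcd1 had 62.4 and 61.4 CPM with Ad-c-Rel against 51.4 and 50.02 CPM with Ad-control (0.35, SE 0.0865, adjusted p = 0.0143 by edgeR). Tigit had 27.8 and 27.45 CPM with Ad-c-Rel against 15.1 and 17.4 CPM with Ad-control (0.82, SE 0.117, adjusted p = 0.000177 by edgeR). Both increases separated the groups. Lag3 had 363 and 330.1 CPM with Ad-c-Rel against 263 and 294 CPM with Ad-control, a smaller gap relative to its spread (0.37, SE 0.0829, adjusted p = 0.00729 by edgeR). Havcr2 had 18 and 27 counts with Ad-c-Rel against 2 and 2 counts with Ad-control. The ratio of its summed counts, 45 against 4 and scaled by library size, was 11.7. A difference was a condition of its being tested, so these counts describe it and no test result is used.

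Among the costimulatory genes, Cd28 had 1023 and 1079 CPM with Ad-c-Rel against 881 and 901 CPM with Ad-control (0.30, SE 0.0743, adjusted p = 0.0141 by edgeR). Icos had 1143 and 1125 CPM with Ad-c-Rel against 1045 and 1044 CPM with Ad-control. Its groups did not overlap, but it was the receptor that did not pass (0.18, SE 0.0719, adjusted p = 0.117 by edgeR). The TNF receptor genes rose together. Tnfrsf4 had 1088 and 1047 CPM with Ad-c-Rel against 763 and 868 CPM with Ad-control (0.45, SE 0.0823, adjusted p = 0.00184 by edgeR). Tnfrsf9 had 2092 and 2203 CPM with Ad-c-Rel against 1916 and 1597 CPM with Ad-control (0.35, SE 0.0848, adjusted p = 0.0117 by edgeR). Tnfrsf18 had 1144 and 1046 CPM with Ad-c-Rel against 912 and 993 CPM with Ad-control (0.26, SE 0.0799, adjusted p = 0.0427 by edgeR). The 9 receptors without Havcr2 were higher in both Ad-c-Rel libraries than in either Ad-control library by CPM, as were 21.4% of all genes tested.

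The calls of Ctla4, Tigit and Tnfrsf4 held with any 1 library left out (adjusted p at most 0.0139 by edgeR), and those of Cd28, Pdcd1, Lag3, Tnfrsf9 and Tnfrsf18 did not. With 1 library left out in turn, log2 fold changes lay at 0.80 to 0.85 for Ctla4, 0.71 to 0.95 for Tigit and 0.34 to 0.56 for Tnfrsf4. They lay at 0.25 to 0.34 for Cd28, 0.34 to 0.35 for Pdcd1 and 0.28 to 0.47 for Lag3. For Tnfrsf9 they lay at 0.24 to 0.47, and for Tnfrsf18 at 0.18 to 0.34. In these fits 4.47%, 4.51%, 5.91% and 6.55% of all genes were called higher. With Havcr2 left aside, scaling to the T cell identity genes left Ctla4, Tigit, Tnfrsf4 and Lag3, beside 4.79% of all genes called higher. In 1 fit over all 12 libraries 0 receptors and 0.13% of all genes were called higher, with fold changes close to those of the pair alone (Ctla4 0.82, adjusted p = 0.136, and Tigit 0.81, adjusted p = 0.321, by edgeR).

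Within libraries, Ctla4 per Cd28 was 0.941 and 0.852 with Ad-c-Rel against 0.645 and 0.598 with Ad-control. Icos per Cd28 was 1.12 and 1.04 with Ad-c-Rel against 1.19 and 1.16 with Ad-control, and Tnfrsf9 per Cd28 was 2.04 in both Ad-c-Rel libraries against 2.18 and 1.77 with Ad-control, which spans it. Ctla4 counts were thus higher relative to those of its family member Cd28, and those of Icos slightly lower.

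c-Rel is an NF-κB subunit, and the receptor genes were matched to RefSeq promoters (250 bases before to 50 after a start, build GRCm38.p6, the mm10 assembly). Promoters were found for 7 of the 10 genes: Ctla4, Pdcd1, Havcr2, Tigit, Tnfrsf4, Tnfrsf9 and Tnfrsf18. An NF-κB-type word (GGG and CC with 5 bases of any kind between) and an AP-1 word, TGANTCA, were searched on both strands. The first was found in Tnfrsf9 alone, 1 of 7 genes, against 53.5% of all 27025 genes in the table. The second was found in Havcr2 and Tnfrsf9, 2 of 7, against 9.0% of all genes. The inner Tnfrsf9 promoter, which holds both words, is shown beside that of Ctla4, the well-counted receptor with the largest increase, which holds neither. The Tnfrsf9 promoter lies at chr4:150927749-150928048 on the plus strand and that of Ctla4 at chr1:60908775-60909074 on the plus strand. Capitals mark 2 overlapping NF-κB-type words followed by the AP-1 word. A match is a word in this window and was not tested as a binding site.
Tnfrsf9: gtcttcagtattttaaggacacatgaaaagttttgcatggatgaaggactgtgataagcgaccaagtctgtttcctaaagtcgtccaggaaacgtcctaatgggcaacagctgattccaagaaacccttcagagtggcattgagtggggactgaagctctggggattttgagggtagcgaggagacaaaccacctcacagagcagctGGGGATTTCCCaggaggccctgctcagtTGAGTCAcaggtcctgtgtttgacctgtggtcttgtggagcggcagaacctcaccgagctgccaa
Ctla4: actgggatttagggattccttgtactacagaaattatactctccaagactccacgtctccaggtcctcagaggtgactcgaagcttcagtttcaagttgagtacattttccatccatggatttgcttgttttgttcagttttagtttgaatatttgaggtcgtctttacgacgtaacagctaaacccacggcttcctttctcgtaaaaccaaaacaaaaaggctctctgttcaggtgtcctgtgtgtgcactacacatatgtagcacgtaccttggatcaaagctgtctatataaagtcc

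Ligands of these receptors, which activated T cells can make themselves, were also higher with Ad-c-Rel. Of 14 tested, 8 were higher and 1 lower, beside 8.16% higher and 6.12% lower among all genes, with a list median of 0.44. Tnfsf9, the ligand of 4-1BB, had 87.0 and 91.7 CPM with Ad-c-Rel against 45.8 and 49.8 CPM with Ad-control (0.96, SE 0.0894). Cd274, which encodes PD-L1, had 34.9 and 35.1 CPM with Ad-c-Rel against 18.7 and 19.0 CPM with Ad-control (0.95, SE 0.104). Cd80, a ligand shared by CD28 and CTLA-4, had 14.8 and 16.1 CPM with Ad-c-Rel against 7.59 and 7.88 CPM with Ad-control (1.05, SE 0.142). Tnfsf8 was higher as well (0.71). The lower gene was Lgals9, a galectin that TIM-3 binds.

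Of 20 further receptors tested, 6 were higher with Ad-c-Rel and 0 lower, led by Cd40lg (0.50), Tnfrsf25 (0.42), Btla (0.44) and Cd5 (0.33). For this and the next lists, the shares among all genes were 8.16% higher and 6.12% lower. The TRAF adaptors of the TNF receptors included Traf1 (0.61) and Traf3 (0.57) among 5 higher adaptors of 27, and 1 adaptor was lower. Of 22 transcription factors 10 were higher, Rel among them, and 2 lower. Nr4a1, an early gene of T cell receptor signalling, had 542 and 534 CPM with Ad-c-Rel against 159 and 170.5 CPM with Ad-control (1.77, SE 0.0779). Among 8 regulatory T cell markers 5 were higher, led by Lrrc32 (0.40) and Il2ra, the IL-2 receptor alpha chain (0.33). Foxp3 was at 1.54 and 1.28 CPM with Ad-c-Rel and 0.843 and 0.602 CPM with Ad-control and was not called (adjusted p = 0.111 by edgeR). Markers of macrophages and monocytes summed to 39.9 and 39.8 CPM with Ad-c-Rel against 25.9 and 30.7 CPM with Ad-control, and B and plasma cell markers to 4.15 and 3.77 CPM against 1.95 and 1.91 CPM.

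In TH17(23) cells from miR-21-/- mice, 9 of the 10 receptor genes had fitted levels below those of Control cells and 1, Lag3, above, and none passed the test. Havcr2, with 20 and 7 counts in miR-21-/- libraries, passed the count filter only because of the Control libraries. Its place among the 9 is a description. edgeR called 0 of 13428 genes (0%) in this comparison, while 2821 genes (21%) had an unadjusted p under 0.05. DESeq2 called 836 genes (6.23%). At an unadjusted p under 0.05, 4 receptors were lower (Ctla4, Tnfrsf9, Tnfrsf4 and Tigit), as were 11.4% of all genes. The receptors' median log2 fold change, Havcr2 included, was −0.56, beside −0.02 over all genes tested. The missing microRNA, which represses messenger RNAs through the seed in its bases 2 to 8, is shown with that seed in capitals. Its RefSeq position (build GRCm38.p6) is chr11:86584120-86584141 on the minus strand. Mir21a, its short precursor gene, had 0 and 0 counts in miR-21-/- libraries and 25 and 20 counts in Control libraries.
miR-21a-5p: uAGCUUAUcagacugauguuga

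Ctla4 had 274 and 292 CPM in miR-21-/- cells against 605 and 732 CPM in Control cells. Every knockout library was below every control library (−1.17, SE 0.192), but the change did not pass with edgeR (adjusted p = 0.125). DESeq2 called Ctla4 (adjusted p = 1.49e-05), Tnfrsf9 (adjusted p = 0.00281) and Tnfrsf4 (adjusted p = 0.048) as lower, beside 3.64% of all genes. Tnfrsf9 had 878 and 712 CPM in miR-21-/- cells against 1369.5 and 1320.2 CPM in Control cells (−0.70, SE 0.162, adjusted p = 0.135 by edgeR). Tnfrsf4 had 247 and 239 CPM in miR-21-/- cells against 352 and 428 CPM in Control cells (−0.62, SE 0.171, adjusted p = 0.158 by edgeR). For both genes the groups did not overlap.

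Cd28 had 415 and 398 CPM in miR-21-/- cells against 577 and 520.0 CPM in Control cells (−0.36, SE 0.148, adjusted p = 0.24 by edgeR). Icos had 498 and 269 CPM in miR-21-/- cells against 593 and 487 CPM in Control cells. The 2 knockout libraries lay far apart, and the upper one overlapped the controls (−0.45, SE 0.255, adjusted p = 0.351 by edgeR). Pdcd1 had 34.0 and 16.7 CPM in miR-21-/- cells against 52.6 and 27.7 CPM in Control cells, with the lower value from replicate 2 in both groups. Lag3 had 114 and 125 CPM in miR-21-/- cells against 87.8 and 108 CPM in Control cells (0.36, SE 0.183, adjusted p = 0.311 by edgeR). Tigit had 75.3 and 46.8 CPM in miR-21-/- cells against 95.8 and 83.1 CPM in Control cells (−0.50, SE 0.189, adjusted p = 0.218 by edgeR). Tnfrsf18 had 395 and 415 CPM in miR-21-/- cells against 438 and 519 CPM in Control cells (−0.17, SE 0.182, adjusted p = 0.605 by edgeR). Havcr2 had 20 and 7 counts in miR-21-/- cells and 37 and 28 counts in Control cells.

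The libraries of the 2 groups did not overlap for 7 receptors that were lower in miR-21-/- cells, Havcr2 among them, and for Lag3, which was higher. Among all genes tested 30.6% did not overlap as lower and 23.7% as higher. Without miR-21-/- replicate 1, 4 receptors were called lower by edgeR: Ctla4 (adjusted p = 0.0312), Tigit (adjusted p = 0.0375), Icos (adjusted p = 0.0396) and Tnfrsf9 (adjusted p = 0.0457). In that fit 9.62% of all genes were called and 4.79% of all genes were called lower, and with any other library left out 0 receptors were.

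Relative to Cd28 of the same library, Ctla4 stood at 0.66 and 0.735 in miR-21-/- cells against 1.05 and 1.41 in Control cells, and Tnfrsf9 at 2.11 and 1.79 in miR-21-/- cells against 2.37 and 2.54 in Control cells. T cell identity genes summed to 4312 and 4118 CPM in miR-21-/- cells and 4621 and 4781 CPM in Control cells, and Cd4 was at 762 and 736 CPM in miR-21-/- cells and 744 and 758 CPM in Control cells. Regulatory T cell markers, most of whose counts come from Il2ra, summed to 2019 and 1240.4 CPM in miR-21-/- cells against 3657 and 3059 CPM in Control cells. Foxp3 itself was at 1.41 and 1.53 CPM in miR-21-/- cells and 0.824 and 0.926 CPM in Control cells. No member of the 4 other lists of costimulation genes was called. Their medians were −0.21 for further receptors, 0.04 for ligands, −0.00 for adaptors and −0.11 for transcription factors. Rel (0.60, adjusted p = 0.161 by edgeR) and Peli1 (0.46, adjusted p = 0.173 by edgeR) had fitted values above 0 and did not pass.

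Several of these genes are neighbours in the genome. Cd28, Ctla4 and Icos lie in a row on chromosome 1 with no other protein-coding gene between them (Cd28 at chr1:60746388-60773359, Ctla4 at chr1:60909025-60915832, Icos at chr1:60960773-61000322). In CNS against ileum all 3 were lower, but by amounts from −1.04 to −3.82. Raph1, the flanking gene on the Cd28 side, had 14.4 and 9.26 CPM in CNS and 6.71 and 6.22 CPM in ileum and was not called (0.67, adjusted p = 0.705 by edgeR). With Ad-c-Rel Raph1 was higher (0.73, adjusted p = 0.00017 by edgeR). Tnfrsf4 and Tnfrsf18 are 9709 bases apart on chromosome 4. Tnfrsf4 per Tnfrsf18 was 1.16 in both CNS libraries against 1.74 and 2.13 in ileum, 0.951 and 1.00 with Ad-c-Rel against 0.836 and 0.874 with Ad-control, and 0.625 and 0.576 in miR-21-/- against 0.803 and 0.824 in Control. In each pair the groups did not overlap. Lag3 lies between Cd4 and Ptms, 16112 bases from Cd4. Cd4 was called in none of the 3 comparisons (adjusted p 0.602, 0.858 and 0.834 by edgeR).

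Overlaps in the annotation limit 3 genes, since the strand setting of the counting is not given. Tnfrsf4 overlaps Sdf4, which was higher with Ad-c-Rel too (0.29, adjusted p = 0.0149 by edgeR) and not called in CNS (−0.45) or miR-21-/- cells (−0.21). Tigit overlaps Zbtb20, which was lower with Ad-c-Rel (−0.33, adjusted p = 0.0258 by edgeR), opposite to Tigit. Tnfrsf18 overlaps the non-coding Gm16008.

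Over the 10144 genes whose mean reached 5 CPM, those most like a receptor over the 12 libraries were found by Pearson r of log2(CPM + 1). The 12 libraries share 6 groups and are not independent points, and r was not split into parts within and between groups. Cd28 was the gene most like Tnfrsf4 (r = 0.97), and Hif1a the one most like Cd28 (0.97). Crem and Stx11 were most like Ctla4 (0.98 each), Clp1 and Gpat3 most like Icos (0.98 each) and Sytl3 and Penk most like Tigit (0.99 each). Havcr2 was most like Cd74 (r = 0.996), the invariant chain of MHC class II. Tubg2 and Vwa1 were most like Tnfrsf9 (0.99 each), Ly6g and Nelfb most like Tnfrsf18 (0.99 and 0.98), and Ndufa13 and Jtb most like Lag3 (0.98 and 0.97). Among the receptors themselves, r ran from −0.92 (Havcr2 with Tnfrsf9) to 0.97 (Cd28 with Tnfrsf4).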

How the data were processed

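RNA-seq count tables of 12 libraries were used, and the 8 ATAC-seq samples were not analysed here. The deposited tables give raw counts for each gene name. HTSeq 0.11.0, TopHat2 2.1.0, Trim Galore 0.4.4, CASAVA 1.4 and the mm10 build appear in the submitters' processing notes, with no role or order. Per the labels' protocols, sorted cells were prepared with a SMART-Seq v4 low-input kit and total RNA of the miR-21 cultures with a TruSeq Stranded kit. For the TH17(β) kit, the annotation and the counting strand, the sources used here give nothing. Summary lines that name no gene (14.7% to 26.1% of a table) stayed out of library sizes and tests.

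The 4 libraries of a pair were fitted alone, using edgeR 4.0.16 in R 4.3.3 (filterByExpr, TMM, quasi-likelihood F test, Benjamini-Hochberg over all genes tested, threshold 0.05). SE was taken as |log2 fold change| divided by √F. CPM are per library without TMM, SD over 2 libraries. The fit was tested on simulated data with known 2-fold and 4-fold changes. It missed most of both for CNS against Ileum and found most of both in the other pairs. Simulated replicates were independent, whereas deviations of same-numbered libraries correlated at 0.563 in miR-21-/- against Control. The simulation thus does not show what the fit can find in that pair. A gene not called in CNS against Ileum or in miR-21-/- against Control is not shown to be unchanged. No replicate pair matched within sampling noise (χ2 over its degrees of freedom was 4.60 to 67.8). Alternatives used other scalings, no filter, DESeq2 1.42.0, 1 fit over 12 libraries, a replicate block and leaving out each library. Named genes are the 10 receptors, Rel, Peli1, Mir21a, defining markers, flanking genes, up to 4 called genes by smallest p in each of 18 lists, and the 2 genes most alike in pattern. Sdf4, Zbtb20, Lgals9 and Gm16008 were named after their values were seen. A few genes this rule names are not reported here. The members and lists were chosen with earlier results of these data known.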

Additional observations from a re-analysis of the deposited data

How the results depend on the processing

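The 5 CNS against Ileum receptor calls, all lower, numbered 5 to 7 under the alternatives. T cell identity scaling gave 4 lower and Pdcd1 higher, DESeq2 6 lower and Pdcd1 higher, and no filter 5 lower and Pdcd1 higher. With a library left out 5 were called, all lower. All genes called there numbered 1163, against 2413 with no filter on low counts, 3551 with DESeq2, 4000 in 1 fit over 12 libraries, and 893 to 1922 with a library left out (1922 without Ileum replicate 1, 1285 of them higher). Directions of receptors that were not called turned under some settings. Library size alone, which moved the median of all genes by 0.20, gave 0.0424 for Havcr2 and 0.0424 for Tnfrsf9. Scaling to T cell identity genes gave 0.35 for Havcr2, 0.36 for Tnfrsf9 and 0.0602 for Tnfrsf18. Lag3 ranged from −0.0751 without CNS replicate 2 to 0.152 without CNS replicate 1. Higher calls made up 643 of 1155 with library size alone and 1052 of 1410 with T cell identity scaling, against 482 of 1163. With Ad-c-Rel they made up 669 of 1696 and 561 of 1926, against 956 of 1673. With Ad-c-Rel, leaving Havcr2 aside, 8 receptors were called. Scaling to T cell identity genes left Ctla4, Tigit, Tnfrsf4 and Lag3, and 1 fit over 12 libraries left 0. With any library left out the log2 fold changes of the 8 stayed above 0, but not every call held. All genes called, 1673, became 1098 with DESeq2, 19 in the fit over 12 libraries and 926 to 1369 with a library left out. In miR-21-/- cells 3 receptors were called with DESeq2 and 0 to 4 with a library left out. All genes called were 3 with T cell identity scaling, 40 with no filter, 836 with DESeq2, 1 over 12 libraries and 3 to 1327 with a library left out. Tnfrsf18 ranged from −0.315 without Control replicate 1 to 0.00697 without Control replicate 2. The cause of these changes was not tested.

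The labels do not say that replicate numbers pair libraries. Same-numbered libraries' deviations correlated at 0.108 in CNS against Ileum, 0.0435 in Ad-c-Rel against Ad-control and 0.563 in miR-21-/- against Control. With the replicate number as a block, 5, 10 and 9 receptors were called in these comparisons. Havcr2 is among the 10 and the 9, but it entered both tests through the higher group alone. Its calls there are not used as results. All genes called were 1309 of 12038 in CNS against Ileum, 2802 (23.9%, with 12.7% higher) with Ad-c-Rel and 4807 (35.8%) in miR-21-/- cells. In miR-21-/- cells the 9 receptors were 8 lower, Havcr2 included, and Lag3 higher. Of 330 values of single receptors under alternatives, 275 kept direction and call, 26 lost the call, 22 gained one and 7 changed direction. Intervals cover counting error only.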
